A study of Homo sapiens with 12 samples.

Results

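The adrenergic core transcription factors described here are TFAP2B, LMO1, GATA3, HAND2, HAND1, TBX3, MEIS2, PHOX2A and SOX11, chosen by gene symbol in the probe annotation. All 9 were on the array, in 10 transcript clusters (a cluster is the set of probes that the design assigns to 1 transcribed locus), out of 14884 named genes and 53617 clusters. MEIS2 had 2 clusters and each of the other factors had 1. RNA came from SK-N-BE(2), an established human neuroblastoma line with amplified MYCN, and each sample was hybridised to 1 Affymetrix Human Gene 2.0 ST array. There were 3 arrays in each of 4 groups, all taken after 6 h. The first group received 1 µM JQ1 together with 10 nM panobinostat (called the combination), the next received 10 nM panobinostat alone, the next 1 µM JQ1 alone, and the last vehicle. JQ1 keeps the BET proteins from binding acetylated histones, and panobinostat inhibits histone deacetylases. All groups share 1 cell line and 1 time point, and whether replicates came from separate cultures is not stated in the labels, so the p-values reflect only how these samples vary, which could be technical variation.

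Neuroblastoma arises from the sympathetic branch of the neural crest, and most neuroblastoma lines hold an adrenergic state resembling immature sympathetic neurons. That state is maintained by a set of transcription factors that bind together at large enhancers, including enhancers of their own genes, so that each supports the expression of the others. Such enhancers carry much acetylated histone, which BET proteins read and histone deacetylases remove. TFAP2B, GATA3, HAND2, HAND1, TBX3, PHOX2A, MEIS2 and SOX11 bind DNA. LMO1 does not, and bridges other factors within a complex.

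The values are read as log2 signal, so a difference of 1 is a 2-fold difference. Array medians over all clusters were lowest in vehicle replicate 1 (6.119) and highest in panobinostat replicate 1 (6.292). Arrays correlated at 0.991 to 0.995 within groups and at 0.962 to 0.989 between groups, over the 14884 genes. No detection call comes with the values, so how far a signal stood above background is not known here. Precision is limited by having 3 arrays a group. Of the adrenergic markers, TH, which makes the catecholamine precursor, had a vehicle mean of 10.92, DBH, which makes noradrenaline, 9.44, and CHGA, a granule protein, 10.89. The means of the 5 measured adrenergic markers were 10.22 to 10.24 per array in the combination, 10.35 to 10.37 in panobinostat, 10.40 to 10.49 in JQ1 and 10.55 in all vehicle arrays. The 3 measured Schwann cell markers averaged 6.51 to 6.60 in the combination, 6.43 to 6.62 in panobinostat, 6.35 to 6.42 in JQ1 and 6.26 to 6.36 in vehicle. The 2 measured endothelial markers averaged 5.61 to 5.89 in the combination, 5.64 to 5.88 in panobinostat, 5.71 to 5.83 in JQ1 and 5.58 to 5.76 in vehicle, and the 2 measured immune markers averaged 7.28 to 7.47 in the combination, 7.18 to 7.30 in panobinostat, at most 7.22 in JQ1, with the lowest JQ1 array below all vehicle arrays, and 7.10 to 7.21 in vehicle. The 6 measured mesenchymal markers averaged 8.67 to 8.77 in the combination, 8.78 to 8.94 in panobinostat, at least 8.90 in JQ1, which overlapped with vehicle, and 8.97 to 9.11 in vehicle. What part these markers have in the results was not tested. Lower signal in bulk RNA cannot tell fewer expressing cells from less RNA per cell.

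The start regions of the factors with the largest and most unlike responses are printed from RefSeq (GRCh38.p14), 250 bases before to 50 after the annotated start. TFAP2B and LMO1 are shown because JQ1 lowered them the most of the 9. HAND2 and HAND1 are shown because these closely related genes stood at 49.6% (HAND2) and 78.3% (HAND1) of vehicle with panobinostat. Capitals mark matches on either strand to TAATTA, a homeodomain site of the class that PHOX2A binds, to GATAA, the site of zinc finger factors such as GATA3, and to CANNTG, the E-box bound by HAND proteins and their partners.

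TFAP2B, chr6:50818621-50818920, strand +: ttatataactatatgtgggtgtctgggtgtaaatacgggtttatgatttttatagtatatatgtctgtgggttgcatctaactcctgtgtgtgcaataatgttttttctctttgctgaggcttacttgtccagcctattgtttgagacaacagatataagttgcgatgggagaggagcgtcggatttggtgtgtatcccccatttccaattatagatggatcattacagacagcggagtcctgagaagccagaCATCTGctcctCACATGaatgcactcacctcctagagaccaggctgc
LMO1, chr11:8268738-8269037, strand -: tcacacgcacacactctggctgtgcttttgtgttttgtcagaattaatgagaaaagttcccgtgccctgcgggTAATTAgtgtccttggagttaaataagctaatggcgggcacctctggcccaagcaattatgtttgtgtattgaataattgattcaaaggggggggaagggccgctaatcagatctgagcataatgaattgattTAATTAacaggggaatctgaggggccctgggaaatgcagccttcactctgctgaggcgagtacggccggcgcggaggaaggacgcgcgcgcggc
HAND2, chr4:173530180-173530479, strand -: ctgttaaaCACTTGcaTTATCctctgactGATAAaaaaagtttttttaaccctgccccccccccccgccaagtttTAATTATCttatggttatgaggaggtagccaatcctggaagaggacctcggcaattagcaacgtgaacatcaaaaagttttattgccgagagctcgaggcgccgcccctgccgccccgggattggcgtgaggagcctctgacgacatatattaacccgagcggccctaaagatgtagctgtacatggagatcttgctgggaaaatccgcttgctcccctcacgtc
HAND1, chr5:154478178-154478477, strand -: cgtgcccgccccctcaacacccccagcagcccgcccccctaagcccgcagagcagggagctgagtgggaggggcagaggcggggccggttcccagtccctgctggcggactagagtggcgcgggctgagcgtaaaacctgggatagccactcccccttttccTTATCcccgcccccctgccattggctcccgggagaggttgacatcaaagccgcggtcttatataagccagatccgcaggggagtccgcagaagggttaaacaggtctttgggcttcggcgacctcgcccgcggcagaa

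The TFAP2B window held 2 CANNTG matches and none of TAATTA or GATAA. The LMO1 window held 2 TAATTA matches. The HAND2 window held 1 TAATTA, 3 GATAA and 1 CANNTG match, and its TAATTA overlaps a GATAA match read on the other strand. The HAND1 window held 1 GATAA match. The PHOX2A window, not printed, held 1 CANNTG match. TAATTA occurred in 4.84% of 35114 RefSeq start windows of 300 bases, GATAA in 22.7% and CANNTG in 68.7%. TGACAG, a MEIS site found in 15.8% of the windows, was in none of these 5 windows. GCCNNNGGC, an AP-2 site found in 23.2%, had 2 matches in the HAND1 window and none in the windows of TFAP2B, LMO1, HAND2 and PHOX2A. The TFAP2B window had 43.0% G and C bases and that of PHOX2A 73.7%, with a median of 58.7% over all windows. GATA3 has 6 annotated start windows and MEIS2 has 2, and none of these is printed. Some GATA3 windows held a TGACAG or a GCCNNNGGC match, and the MEIS2 windows held neither. 7 of the 9 factors had an entry, and those without one were TBX3 and SOX11. A match describes the letters and shows no binding.

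With the combination, 8 of the 9 factors fell and SOX11 rose. Of all 14884 genes 37.7% passed the same test (limma, adjusted p under 0.05), 19.5% lower and 18.2% higher. The combination and vehicle arrays did not overlap for any of the 9 factors, and for 46.1% of all genes. The median change of the 9 was -1.23 and that of all genes was 0.02. All 8 falls were at least 2-fold, a size that 465 genes reached. With panobinostat alone 8 of 9 fell, where 29.3% of all genes passed, 14.8% lower and 14.5% higher. The arrays of those 8 did not overlap with vehicle, as for 39.8% of all genes, and 5 of these falls were at least 2-fold, a size that 176 genes reached. HAND2 was close to that size and had -0.95 at the least with 1 array left out. The median change of the 9 was -1.01, against 0.03 over all genes. With each array centred on its median, panobinostat gave 1441 genes higher and 2310 lower, in place of 2161 and 2202. With JQ1 alone 3 factors fell, 2 rose and 4 did not pass, where 17.6% of all genes passed, 9.47% lower and 8.18% higher. For 8 factors, all but HAND2, the JQ1 arrays lay apart from the vehicle arrays, as they did for 33.5% of all genes. The median change with JQ1 was -0.18, against 0.01 over all genes. These 3 comparisons share the vehicle arrays.

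**Figure D1:**
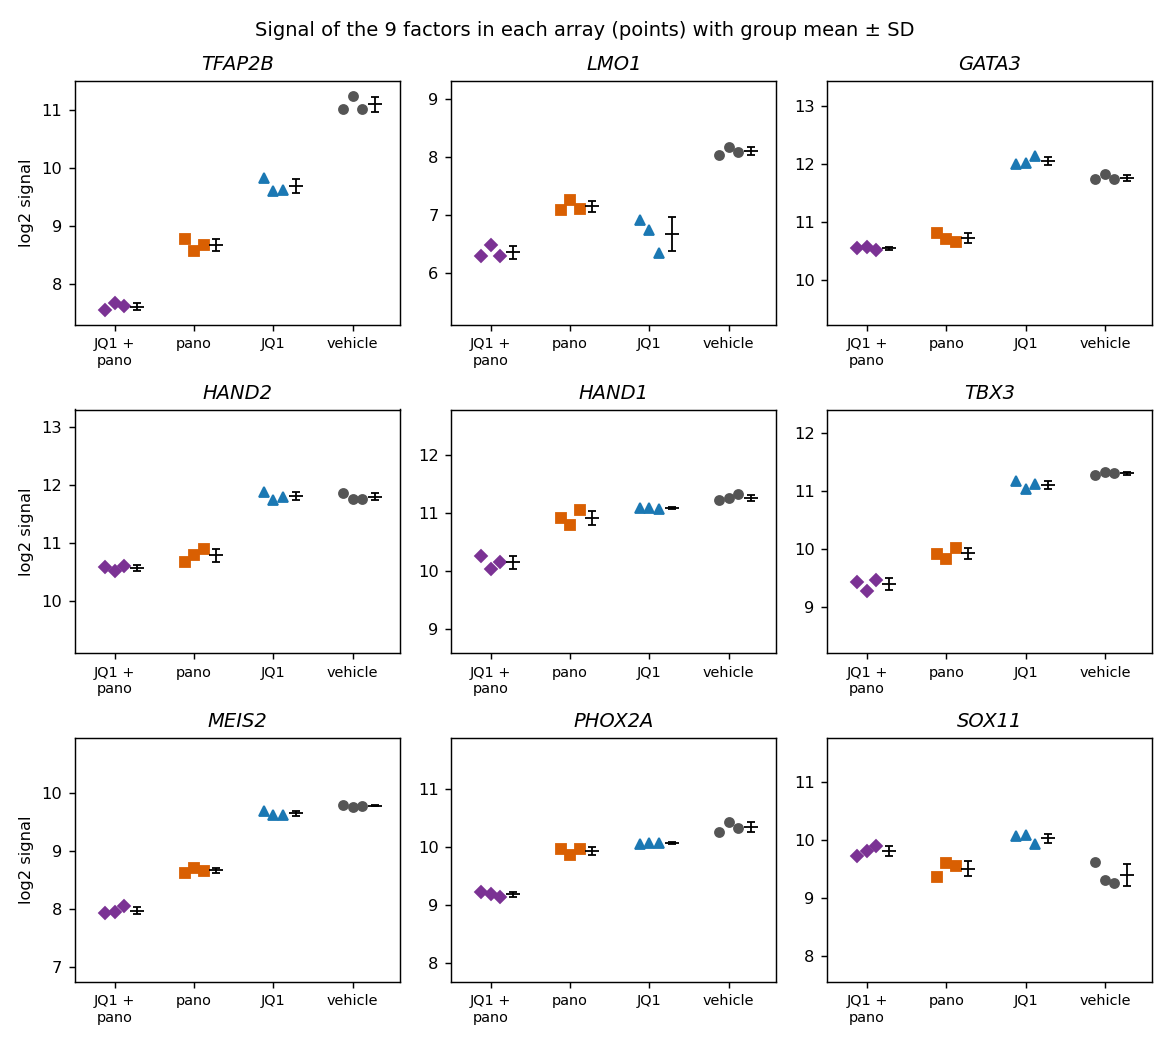
Log2 signal (y axis) of the 9 factors in the 12 arrays, by group (x axis). Points are single arrays, the bars beside them show the mean ± SD of 3 arrays, and all panels span the same log2 range. The TFAP2B arrays form 4 separate levels, with 7.55 to 7.67 in the combination as the lowest and 11.02 to 11.25 in vehicle as the highest.

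TFAP2B, an AP-2 family factor of the neural crest, had the largest fall of all 14884 genes with the combination, with panobinostat alone, and with panobinostat added to JQ1. Its log2 signal was 7.55, 7.67 and 7.62 in the combination, 8.77, 8.57 and 8.68 in panobinostat, 9.83, 9.60 and 9.63 in JQ1, and 11.02, 11.25 and 11.02 in vehicle. No pair of groups overlapped, and the order from low to high was combination, panobinostat, JQ1, vehicle, with every step between neighbours past the test. The combination left 8.96% of the vehicle signal (log2 change -3.48 ± 0.09 SE, limma adjusted p = 1.36e-09, n = 3 each). Panobinostat left 18.6% (-2.42 ± 0.09) and JQ1 left 37.6% (-1.41 ± 0.09, adjusted p = 3.85e-06). The fall with JQ1 was the 17th largest of all genes.

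LMO1, the bridging cofactor and a neuroblastoma susceptibility gene, was the only member that was lower in JQ1 than in panobinostat. Its signal was 6.29, 6.49 and 6.29 in the combination, 7.09, 7.26 and 7.10 in panobinostat, 6.91, 6.75 and 6.35 in JQ1, and 8.04, 8.17 and 8.08 in vehicle. All treated arrays lay below all vehicle arrays, and the combination overlapped with JQ1. LMO1 was at 29.9% of vehicle with the combination (-1.74 ± 0.13), 52.0% with panobinostat (-0.94 ± 0.13) and 37.2% with JQ1 (-1.43 ± 0.13). Panobinostat exceeded JQ1 by 0.48 ± 0.13 (limma adjusted p = 0.0154), a call lost without panobinostat replicate 2 (0.429) and in a fit of the panobinostat and JQ1 arrays alone (adjusted p = 0.0537). The combination minus JQ1 was -0.31 (95% interval -0.59 to -0.04, adjusted p = 0.0925), and without JQ1 replicate 3, the lowest JQ1 array, it was -0.473 and passed (adjusted p = 0.00569). The LMO1 mean in the combination (6.36) and its JQ1 replicate 3 value (6.35) were close to the array medians (6.119 to 6.292). How far these LMO1 signals stood above background is not known.

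PHOX2A, a homeodomain factor that drives the noradrenergic enzyme genes, fell with each compound and fell further with both. Its signal was 9.23, 9.20 and 9.14 in the combination, 9.98, 9.86 and 9.98 in panobinostat, 10.05, 10.07 and 10.08 in JQ1, and 10.27, 10.43 and 10.34 in vehicle. The combination arrays stood well below the other groups, while panobinostat and JQ1 lay close together without overlapping. Changes against vehicle were -1.16 ± 0.07 with the combination (44.7% of vehicle), -0.41 ± 0.07 with panobinostat and -0.28 ± 0.07 with JQ1 (limma adjusted p = 0.0115). The JQ1 call was lost without vehicle replicate 2 (-0.242) and when every transcript cluster was fitted (adjusted p = 0.051). Panobinostat and JQ1 did not differ past the test (-0.13, 95% interval -0.27 to 0.02).

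HAND1, a basic helix-loop-helix factor of the developing heart and sympathetic lineage, had a profile across arrays close to that of PHOX2A (Pearson r of 0.99 over the 12 arrays, which form 4 treatment groups). Its signal was 10.26, 10.05 and 10.17 in the combination, 10.92, 10.80 and 11.05 in panobinostat, 11.10, 11.10 and 11.07 in JQ1, and 11.23, 11.26 and 11.33 in vehicle. Only the combination arrays were set well apart. HAND1 fell to 46.2% of vehicle with the combination (-1.11 ± 0.08) and to 78.3% with panobinostat (-0.35 ± 0.08, adjusted p = 0.0051). The JQ1 value of -0.18 ± 0.08 did not pass (adjusted p = 0.144, and 0.0447 with a trended robust prior), although the JQ1 arrays were all below vehicle. Beyond panobinostat alone, the combination lowered HAND1 by a further log2 change of -0.76 ± 0.08.

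HAND2, the paralog of HAND1 and a factor that sympathetic neurons need for their noradrenergic identity, responded to panobinostat and not measurably to JQ1. Its signal was 10.59, 10.52 and 10.60 in the combination, 10.67, 10.79 and 10.90 in panobinostat, 11.89, 11.74 and 11.79 in JQ1, and 11.86, 11.77 and 11.77 in vehicle. The arrays fell into a lower pair of groups with panobinostat and a higher pair without it. HAND2 was at 42.6% of vehicle with the combination (-1.23 ± 0.07) and 49.6% with panobinostat (-1.01 ± 0.07). JQ1 minus vehicle was 0.01, with a 95% interval of -0.16 to 0.17. The combination minus panobinostat was -0.22 ± 0.07 and did not pass (limma adjusted p = 0.0761), though the arrays did not overlap. It passed without panobinostat replicate 1 (-0.276, adjusted p = 0.0446), and also with quantile normalization (0.03), with dim genes left out (0.0332) and with a trended robust prior (0.0117).

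TBX3, a T-box repressor, and MEIS2, a homeodomain cofactor of the TALE class, also divided by panobinostat, with a further step in the combination. TBX3 had 9.44, 9.29 and 9.47 in the combination, 9.92, 9.84 and 10.02 in panobinostat, 11.17, 11.04 and 11.12 in JQ1, and 11.29, 11.33 and 11.32 in vehicle. The MEIS2 cluster with the higher mean had 7.93, 7.95 and 8.05 in the combination, 8.63, 8.71 and 8.66 in panobinostat, 9.70, 9.63 and 9.62 in JQ1, and 9.79, 9.76 and 9.78 in vehicle. In both genes the 4 groups did not overlap, and the vehicle arrays were the highest. TBX3 fell to 26.6% of vehicle with the combination (-1.91 ± 0.07) and to 38.3% with panobinostat (-1.38 ± 0.07). MEIS2 fell to 28.7% of vehicle with the combination (-1.80 ± 0.06) and to 46.4% with panobinostat (-1.11 ± 0.06). The JQ1 changes of -0.20 ± 0.07 for TBX3 (adjusted p = 0.0817) and -0.12 ± 0.06 for MEIS2 (adjusted p = 0.205) did not pass. TBX3 passed with JQ1 when dim genes were left out (0.0368) or a trended robust prior was used (0.0208). The second MEIS2 cluster was also lower with the combination (-1.17 ± 0.13) and panobinostat (-0.95 ± 0.13), and with JQ1 it was at 0.10 ± 0.13, which did not pass. Its combination minus panobinostat value of -0.22 did not pass (adjusted p = 0.453 over all clusters), where the first cluster fell by 0.69. The second cluster averaged 6.05 in the combination and 6.28 in panobinostat, near the array medians (6.119 to 6.292). How far that signal stood above background is not known.

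**Figure D2:**
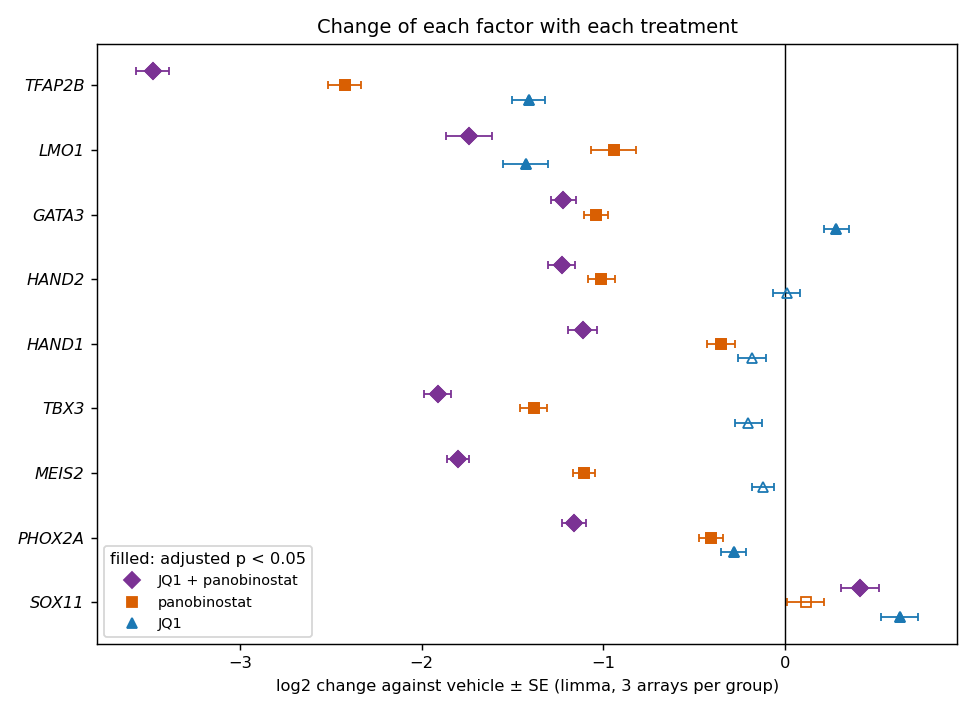
Log2 change against vehicle (x axis) ± SE from limma for each factor (rows), with 3 arrays per group. Filled symbols passed at an adjusted p under 0.05, and open ones did not. The combination symbol is the lowest in every row but that of SOX11, and the filled JQ1 symbols of GATA3 and SOX11 lie above 0.

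GATA3, a zinc finger factor of sympathetic development, moved in opposite directions with the compounds. Its signal was 10.54, 10.56 and 10.52 in the combination, 10.80, 10.71 and 10.65 in panobinostat, 11.99, 12.02 and 12.13 in JQ1, and 11.73, 11.82 and 11.74 in vehicle. JQ1 arrays were the highest of the 4 groups and combination arrays the lowest. GATA3 fell by 1.22 ± 0.07 with the combination, with panobinostat the change was -1.04 ± 0.07, and GATA3 rose by 0.28 ± 0.07 with JQ1 (limma adjusted p = 0.012, 122% of vehicle). The rise did not pass without JQ1 replicate 3 (0.241, adjusted p = 0.0553) or when every cluster was fitted (adjusted p = 0.0525). Panobinostat added to JQ1 lowered GATA3 by a log2 change of -1.50 ± 0.07, whereas JQ1 added to panobinostat gave -0.18 ± 0.07, which did not pass (adjusted p = 0.101).

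SOX11, an SRY-related factor of immature neurons, was the member that rose with the combination. Its signal was 9.72, 9.82 and 9.90 in the combination, 9.37, 9.60 and 9.56 in panobinostat, 10.07, 10.08 and 9.94 in JQ1, and 9.62, 9.32 and 9.26 in vehicle. The JQ1 and combination arrays were above all vehicle arrays, and panobinostat overlapped with vehicle. SOX11 rose by 0.41 ± 0.10 with the combination (133% of vehicle, limma adjusted p = 0.00688) and by 0.63 ± 0.10 with JQ1 (155%, adjusted p = 0.00138). With panobinostat it was at 0.11 (95% interval -0.11 to 0.34). In the order vehicle, panobinostat, combination, JQ1, no step between neighbours passed the test.

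What each compound adds to the other was read from the combination against each single treatment. Against JQ1, 7 of 9 factors were lower with the combination and none was higher, and LMO1 and SOX11 did not pass. In this comparison 25.6% of all genes passed, 13.9% lower and 11.7% higher (1222 genes higher and 2079 lower with each array centred on its median), and arrays did not overlap for 8 factors and 41.7% of all genes. Against panobinostat, 6 of 9 were lower, and GATA3, HAND2 and SOX11 did not pass. All 3 passed with the trended robust prior (adjusted p = 0.0146, 0.0117 and 0.028) and with dim genes left out (0.0444, 0.0332 and 0.0363). Here 14.7% of all genes passed, 8.55% lower and 6.13% higher, and arrays did not overlap for any of the 9 factors and for 30.9% of all genes. TFAP2B, HAND1, TBX3, MEIS2 and PHOX2A were lower with the combination than in all other groups, a property of 4.58% of genes. Set directly against JQ1, panobinostat gave lower TFAP2B, GATA3, HAND2, TBX3, MEIS2 and SOX11 and higher LMO1, where 23.3% of all genes passed, 11.6% lower and 11.6% higher. Panobinostat and JQ1 arrays did not overlap for any of the 9 factors, and for 39.3% of all genes. Over all genes the split was 1732 higher and 1729 lower, and it became 1088 genes higher and 1847 lower with each array centred on its median.

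The interaction compares the combination's change with the sum of the 2 single changes. It was below 0 for 7 factors and above 0 for TFAP2B (0.35 ± 0.13) and LMO1 (0.63 ± 0.18), whose interactions did not pass (limma adjusted p = 0.238 and 0.134). HAND1 (-0.58 ± 0.11, adjusted p = 0.0405), MEIS2 (-0.57 ± 0.09, adjusted p = 0.0164) and PHOX2A (-0.47 ± 0.09, adjusted p = 0.048) passed, each lower with both compounds than the sum. Of all genes 0.759% had an interaction call, 0.450% below 0 and 0.309% above it. For HAND1 the single changes summed to -0.54 and the combination gave -1.11, and for PHOX2A the values were -0.69 and -1.16. GATA3, at -0.46 ± 0.09, was just outside the threshold (adjusted p = 0.0526). It passed with quantile normalization (limma adjusted p = 0.0397), with dim genes left out (0.0147) and with a trended robust prior (0.00189). The HAND1, MEIS2 and PHOX2A calls were fragile. The PHOX2A call was lost when any 1 of the 12 arrays was left out (-0.51 to -0.43), the HAND1 call on leaving out any array but combination replicate 1 or panobinostat replicate 2 (-0.61 to -0.52 where it was lost), and the MEIS2 call without combination replicate 2 (-0.558, adjusted p = 0.0545). With the replicate block, limma called 0 of the 9 interactions, with 7 at an unadjusted p under 0.05, which 1762 of all 14884 genes reached in that fit. The second MEIS2 cluster had an interaction of -0.33 ± 0.19 that did not pass (adjusted p = 0.623 over all clusters).

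**Figure D3:**
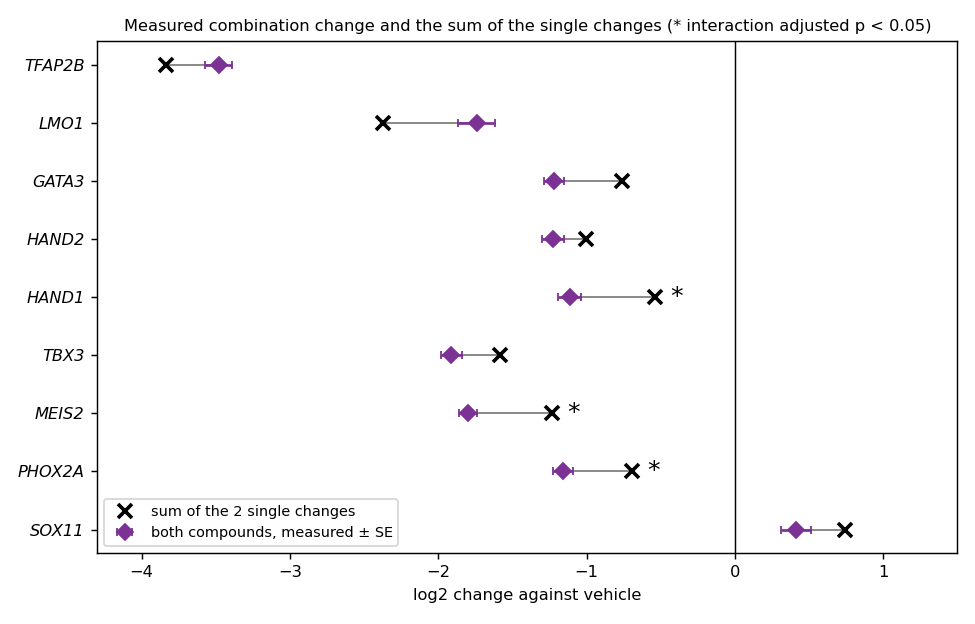
Log2 change against vehicle (x axis) for each factor (rows). Diamonds are the measured change with both compounds ± SE, crosses the sum of the changes with JQ1 alone and panobinostat alone, and stars mark an interaction with an adjusted p under 0.05. The diamond lies right of the cross for TFAP2B and LMO1 and left of it for the other factors.

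Other adrenergic factors were mostly lower with the combination and with panobinostat. The list came from general knowledge of neuroblastoma but was chosen with earlier results of these data known, so its counts are descriptive. Of 19 measured, 16 were lower with the combination and none was higher (median -0.82). Of all genes 19.5% were lower and 18.2% higher with the combination. With panobinostat 13 were lower and 1 was higher (median -0.44), where 14.8% of all genes were lower. With JQ1 5 were lower, 1 was higher and 13 did not pass (median -0.23), where 9.47% of all genes were lower. SIX3, a homeobox factor, had 8.43, 8.61 and 8.37 in the combination, against 9.84, 9.86 and 9.66 in vehicle (-1.32 ± 0.09). SATB1, a chromatin organiser, had 7.24, 7.54 and 7.41 in the combination, against 8.85, 8.72 and 8.49 in vehicle (-1.29 ± 0.10). DACH1 (-1.07 ± 0.19) and ZNF536 (-1.05 ± 0.14) also fell. SOX4, a close relative of SOX11, was at 0.12 with the combination and did not pass (adjusted p = 0.179), and it rose with panobinostat (0.29 ± 0.07) and with JQ1 (0.28 ± 0.07).

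Partners and inhibitors of the 9 factors fell in 8 of 12 measured cases with the combination and rose in 1 (median -0.55). Of all genes 19.5% fell and 18.2% rose with the combination. With panobinostat 7 were lower and 1 was higher, where 14.8% of all genes were lower and 14.5% higher. With JQ1 3 were lower, where 9.47% of all genes were lower. PBX2, a partner of MEIS proteins, fell by 1.01 ± 0.09 with the combination, and TCF4, an E-protein that pairs with HAND factors, fell by 0.89 ± 0.08. KCTD1 (-0.94 ± 0.09) and KCTD15 (-0.91 ± 0.10), which inhibit AP-2 factors, fell too. PKNOX1, a relative of the MEIS proteins, was at -0.05 with the combination (adjusted p = 0.663) and at -0.54 ± 0.08 with panobinostat.

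Paralogs of the 9 were lower in 6 of 18 cases with the combination (median -0.08) and none was higher. Of all genes 19.5% were lower and 18.2% higher with the combination. With panobinostat 4 paralogs were lower and 2 higher, where 14.8% of all genes were lower and 14.5% higher. With JQ1 3 were lower and 2 higher, where 9.47% of all genes were lower and 8.18% higher. The panobinostat and JQ1 counts were near these shares. This list shares GATA2, TBX2, LMO3, MEIS1 and SOX4 with the list of other adrenergic factors. GATA2 had 9.83, 9.62 and 9.65 in the combination, 9.89, 9.79 and 9.95 in panobinostat, 10.76, 10.68 and 10.67 in JQ1, and 10.65, 10.77 and 10.76 in vehicle. Like GATA3 it was low in both groups with panobinostat (-1.03 ± 0.08 in the combination and -0.85 ± 0.08 alone), and JQ1 gave -0.02 ± 0.08. LMO3 was lower by 0.85 ± 0.11 with the combination and had -0.46 ± 0.11 with panobinostat and -0.87 ± 0.11 with JQ1. TBX2 (-0.87 ± 0.08) and SOX12 (-0.84 ± 0.08) fell with the combination.

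Noradrenergic effector genes make, store or release catecholamines or mark neurons. Of 19 measured, 11 were lower and 2 higher with the combination (median -0.25), where 19.5% of all genes were lower and 18.2% higher. With panobinostat 6 were lower and 3 higher (median -0.13), where 14.8% of all genes were lower and 14.5% higher. With JQ1 3 were lower and 1 higher (median -0.06), where 9.47% of all genes were lower and 8.18% higher. TH was at -0.25 ± 0.06 and DBH at -0.47 ± 0.07 with the combination, and both passed. SCG2, a granin of secretory vesicles (-1.41 ± 0.08), and MAB21L1, a neural developmental gene (-1.40 ± 0.08), fell the most in this list. GCH1, which starts synthesis of the cofactor of TH, rose by 1.03 ± 0.09. RET, a receptor kinase, was at -0.20 ± 0.11 and did not pass.

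Factors of the mesenchymal state of neuroblastoma went both ways, as did genes over the whole array. Of 19 measured, 6 were lower and 5 higher with the combination (median -0.06), where 19.5% of all genes were lower and 18.2% higher. With panobinostat 3 were lower and 5 higher, where 14.8% of all genes were lower and 14.5% higher. With JQ1 2 were lower and 1 higher, where 9.47% of all genes were lower and 8.18% higher. SOX9, a neural crest factor, had 9.36, 9.21 and 9.19 in the combination, against 8.04, 8.33 and 8.12 in vehicle (1.09 ± 0.10). SNAI2, a repressor of epithelial genes, had 10.84, 10.92 and 11.03 in the combination, against 11.98, 11.81 and 11.91 in vehicle (-0.97 ± 0.07). TWIST1 (-0.90 ± 0.16) and IRF2 (-0.80 ± 0.07) fell, and MAFF did not pass (0.18 ± 0.08). Of 6 measured mesenchymal markers, SNAI2 among them, 2 were lower with the combination, 2 with panobinostat and 1 with JQ1, where 1 was higher.

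**Figure D4:**
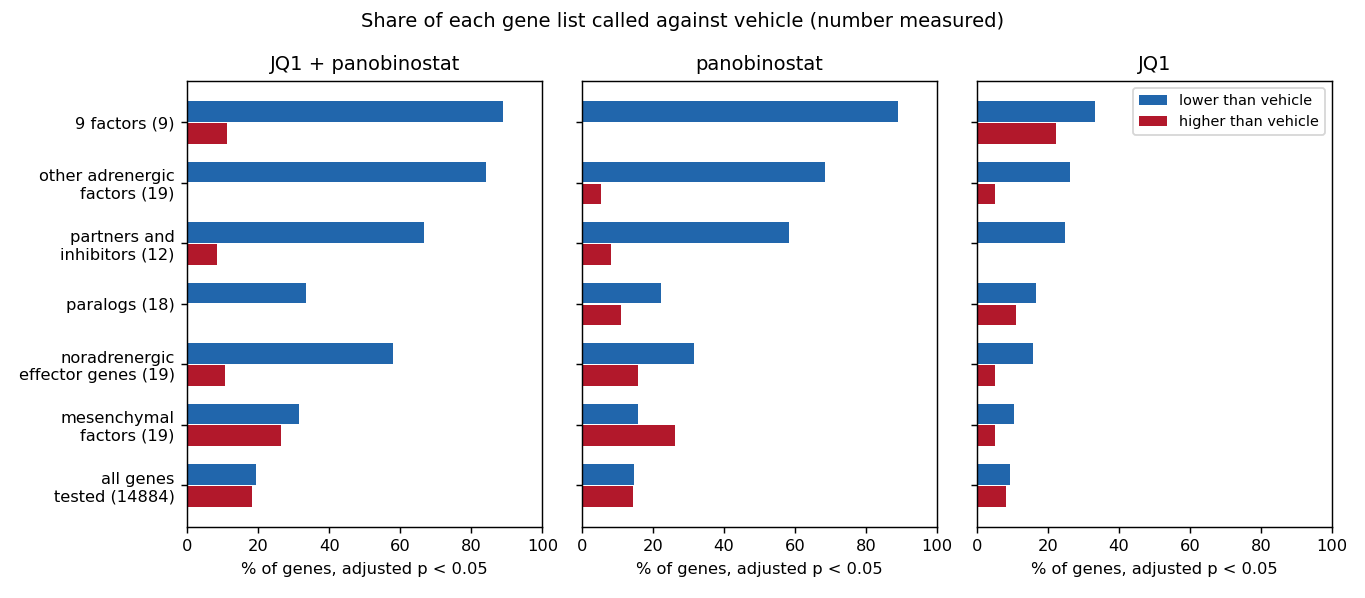
Share of measured genes (x axis, %) that were lower (blue) or higher (red) than vehicle at a limma adjusted p under 0.05, by gene list (rows, with the number measured), in 1 panel per treatment. With the combination 16 of 19 other adrenergic factors were lower, against 6 of 19 mesenchymal factors and 19.5% of all genes.

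Measured genes within 3 places of each factor in RefSeq gene order were then read, a set chosen after the members' values were known. GATA3-AS1, a long noncoding RNA transcribed away from GATA3, averaged 7.04 in the combination, 7.39 in panobinostat, 8.04 in JQ1 and 8.44 in vehicle (means of 3 arrays). It was lowest in the combination and, unlike GATA3, was below vehicle in JQ1. GATA3-AS1 fell by 1.40 ± 0.08 with the combination, by 1.05 ± 0.08 with panobinostat and by 0.40 ± 0.08 with JQ1 (limma adjusted p = 0.00468), where GATA3 rose with JQ1. The difference between the 2 genes was not tested, and how the probes separate strands is not stated in the labels.

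HAND2-AS1, transcribed away from HAND2, had 9.81, 9.85 and 9.88 in the combination, 10.35, 10.34 and 10.38 in panobinostat, 11.04, 11.10 and 11.03 in JQ1, and 11.30, 11.29 and 11.17 in vehicle. Its 4 groups did not overlap. It fell by 1.41 ± 0.06 with the combination, by 0.90 ± 0.06 with panobinostat and by 0.20 ± 0.06 with JQ1 (adjusted p = 0.0474). SILC1, a noncoding RNA next to SOX11 that raises Sox11 in mouse neurons, had 5.56, 5.71 and 5.48 in the combination, 6.58, 6.58 and 6.96 in panobinostat, 5.68, 5.48 and 5.61 in JQ1, and 6.51, 6.39 and 6.23 in vehicle. It was lower in both groups that received JQ1, by -0.79 ± 0.12 in the combination and -0.78 ± 0.12 with JQ1 alone, the treatments in which SOX11 rose.

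TFAP2D, the AP-2 gene beside TFAP2B, fell by 0.70 ± 0.11 with the combination and by 0.66 ± 0.11 with JQ1, and was at -0.12 ± 0.11 with panobinostat. Of the genes near PHOX2A, INPPL1 (-0.73 ± 0.06) and CLPB (-0.50 ± 0.06) fell with the combination, and FOLR1 (-0.20 ± 0.09) and FOLR2 (-0.01 ± 0.08) did not pass. Near HAND1, SAP30L went the other way and rose by 0.75 ± 0.09, as did SAP30L-AS1 by 0.43 ± 0.09. STK33, near LMO1, was at 0.22 ± 0.09 with the combination and did not pass, and it fell by 0.37 ± 0.09 with JQ1. LOC145845, near MEIS2, did not pass with the combination (-0.12 ± 0.10). By mean over all arrays, TFAP2D (6.13), STK33 (6.52), SAP30L-AS1 (5.66), FOLR1 (6.97), FOLR2 (5.77) and LOC145845 (4.97) lay below the median gene (7.238). SILC1 (6.06) did too, and its JQ1 and combination arrays (5.48 to 5.71) lay below all array medians (6.119 to 6.292). How far these signals stood above background is not known.

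**Figure D5:**
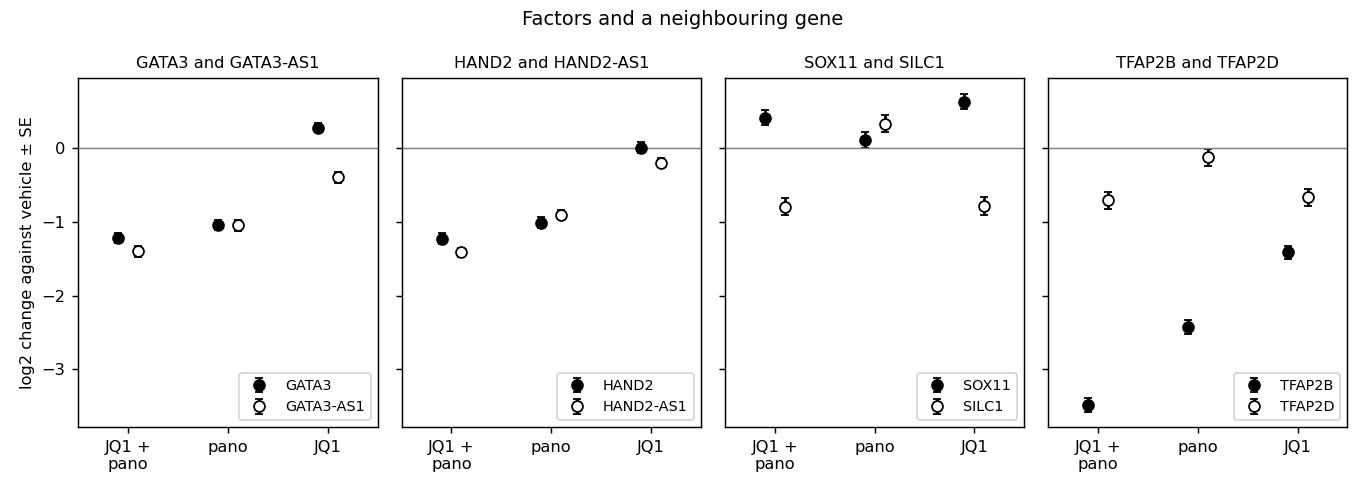
Log2 change against vehicle (y axis) ± SE for 4 factors (filled) and a neighbouring gene (open), by treatment (x axis). GATA3 and GATA3-AS1 lie on opposite sides of 0 with JQ1, and SOX11 and SILC1 do so with JQ1 and with the combination.

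Likeness between members was described by Pearson r over the 12 arrays, which form 4 treatment groups, so r mostly follows the group means. HAND2, TBX3, MEIS2 and GATA3 were alike, from 0.94 (GATA3 and MEIS2) to 0.99 (HAND2 and TBX3, and TBX3 and MEIS2). GATA3 and HAND2 were at 0.97, as were HAND2 and MEIS2. TFAP2B was as close to TBX3 (0.95) as GATA3 was (0.95). LMO1 was closest to TFAP2B (0.83) and far from GATA3 (0.38). SOX11 had r between -0.72 (LMO1) and 0.17 (GATA3) with the other members. Over the protein-coding genes (652 for TFAP2B, 653 for LMO1 and SOX11) whose mean was at or above that of the median gene and whose group means spanned at least 1, the profiles most like TFAP2B were those of FAXC (0.994), SHC3 (0.992), an adaptor of neurotrophin receptors, and DUSP16 (0.991), a MAP kinase phosphatase. Most like LMO1 were OLFM3 (0.984), a secreted olfactomedin, NPY2R (0.974), a neuropeptide Y receptor, and TRERF1 (0.973), a zinc finger regulator. Most like SOX11 were TARS3 (0.983), a threonyl-tRNA synthetase, OSBPL6 (0.970), a lipid transfer protein, and OPN3 (0.947), an opsin. FAXC had group means of 7.07 in the combination, 7.96 in panobinostat, 8.90 in JQ1 and 9.72 in vehicle, the same order as TFAP2B.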

How the data were processed

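RNA of SK-N-BE(2) cells (4 treatments, 3 arrays each, 12 in all) was measured on Affymetrix Human Gene 2.0 ST arrays, per the labels. The deposited values are taken as log2 signal because of their range, 1.391 to 14.097, while the labels name no log base. Per the submitters' processing notes, MAS5 and affy were used, with no role or version; how signal was corrected, normalized and summarised, and on which build, is not given in the sources used here.

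Of 53617 clusters, 16098 had 1 gene symbol. For each of the 14884 genes the cluster of highest mean over all arrays was used, and no gene was filtered out. All 12 arrays were fitted in limma 3.58.1 (R 4.3.3; lmFit, eBayes, 1 coefficient per group, no replicate term; 8 residual and 3.457 prior degrees of freedom). Two-sided p-values were adjusted by Benjamini-Hochberg over all genes within each of 7 comparisons, and a gene was called at adjusted p under 0.05. With 3 against 3 arrays an exact permutation test cannot go below 0.1, so none was run. The code was checked on data simulated with independent normal noise of the fitted spread, which cannot show whether that model suits these arrays.

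The members and lists were chosen with earlier results of these data known. All 9 members are named, and from each list up to 4 called genes with the largest change with the combination and 1 not called. Genes near the members were chosen after the members' values were seen. Alternatives were centring, quantile normalization, a filter at the 40th percentile, other cluster choices, a replicate block, fits of 2 groups, a trended robust prior, and leaving out each array.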

Additional observations from a re-analysis of the deposited data

Results flagged for a closer look

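For 3 factors the change with panobinostat in the presence of JQ1 differed from its change without JQ1 by the interaction term (limma adjusted p under 0.05). The difference was -0.58 for HAND1, -0.57 for MEIS2 and -0.47 for PHOX2A, all in the direction of a larger fall when JQ1 was present. 113 of 14884 genes, 0.759%, had such a call. Groups of 3 arrays were not searched for single outlying arrays.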

How the results depend on the processing

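Of 1251 values of the 9 factors under 8 other settings and 12 left-out arrays, 1191 kept their direction and their side of the threshold, and every factor kept its direction in each comparison except HAND2 with JQ1. That value, 0.01 with all arrays, ranged from -0.031 to 0.041 with 1 array left out, and was -0.031 without JQ1 replicate 1, -0.008 without vehicle replicate 2 and -0.008 without vehicle replicate 3. The 8 panobinostat calls and the 9 combination calls held in all settings. With every transcript cluster fitted, 3 in place of 5 factors were called with JQ1, and with the trended robust prior 7 were, TBX3 and HAND1 in addition. Fitting only the groups compared gave 1325 genes called for the combination against panobinostat, in place of 2184. Of the 3 interaction calls limma kept 0 with arrays centred on their medians (7 at an unadjusted p under 0.05), 0 with every cluster fitted (7), 0 with the replicate block (7) and 1 with the mean of a gene's clusters, and it kept 0 to 2 when 1 array was left out. The GATA3 interaction was called in addition with quantile normalization, without dim genes and with the trended robust prior. The 113 genes with an interaction call became 41 with centring, 313 with quantile normalization, 259 without dim genes, 48 with the replicate block, 324 with the trended robust prior and 28 to 86 with 1 array left out; the cause was not tested. Same-numbered arrays deviated together with correlations of -0.69 to 0.24, so the numbers were not taken as pairing the samples, and the replicate block changed no other call of the 9 factors. Signal over background is unknown, which limits what low values can show.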
